A study of Mus musculus with 9 samples.

Results

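A set of 10 lymphoid transcription factor genes was read in the peak lists of mouse bone marrow stem and progenitor cells with and without DEK, a chromatin-bound protein. The genes were Ikzf1, Ikzf2, Ikzf3, Ebf1, Pax5, Bcl11a, Bcl11b, Satb1, Tcf7 and Tcf3, chosen by name from what they are known to do, as 10 of 21887 protein-coding genes in the gene table. Each was taken with its whole RefSeq span and 50 kb on either side, and every peak of 9 lists that touched this window was kept. The lists come from CUT&Tag, in which a transposase tethered to an antibody cuts and tags the DNA around the bound protein or histone mark. The cKO mice carried floxed Dek alleles and Tie2-Cre (Dekfl/fl,Tie2-Cre), and the controls carried the same floxed alleles without Cre (Dekfl/fl, called fl). Tie2-Cre is active in endothelial cells and, through their common origin, in blood cells as a whole. All mice were C57BL/6 and 12 weeks old, and the labels do not say how many animals were pooled or whether replicate libraries came from separate mice. H3K27ac, an acetylation mark of active promoters and enhancers, and H3K4me3, a mark of promoters, were profiled in about 50000 LSK cells (Lin-Sca-1+c-Kit+, stem cells with early progenitors). H3K9ac, another acetylation mark, was profiled in about 20000 haematopoietic stem cells (HSC, LSK cells that are also CD48-CD150+). Each of these marks had 1 cKO and 1 fl library, and DEK itself had 3 libraries of fl HSC and none of cKO.

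Lymphoid development begins in the LSK compartment. Ikzf1 encodes Ikaros and Tcf3 encodes the E2A proteins, which prime progenitors for the lymphoid fate. Ebf1 and then Pax5 set up and commit the B cell lineage, with Bcl11a needed early in it, whereas Tcf7 (TCF-1) and then Bcl11b do so for T cells. Satb1 organises chromatin in thymocytes and is active in lymphoid-primed progenitors, and Ikzf2 (Helios) and Ikzf3 (Aiolos) are Ikaros relatives, of which Helios is expressed in stem cells and regulatory T cells and Aiolos in later B and T cells.

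The promoter sequences of 6 of the genes, from the RefSeq table for GRCm38.p6 (the mm10 coordinates), are shown because they span the states met below. Each window runs 5′ to 3′ on the gene's own strand from 250 bases before to 50 after an annotated start, and capitals mark CG dinucleotides. Ikzf1, Tcf3 and Satb1 (with H3K4me3 in both genotypes and H3K27ac in cKO only) are at chr11:11685675-11685974 (plus strand), chr10:80433586-80433885 (minus) and chr17:51832598-51832897 (minus). The Ebf1 window (chr11:44619978-44620277, plus) overlapped an H3K4me3 peak of fl only, the Tcf7 window (chr11:52282965-52283264, minus) an H3K27ac peak of cKO only and no H3K4me3, and the Bcl11b window (chr12:108003365-108003664, minus) no peak of any list.
Ikzf1: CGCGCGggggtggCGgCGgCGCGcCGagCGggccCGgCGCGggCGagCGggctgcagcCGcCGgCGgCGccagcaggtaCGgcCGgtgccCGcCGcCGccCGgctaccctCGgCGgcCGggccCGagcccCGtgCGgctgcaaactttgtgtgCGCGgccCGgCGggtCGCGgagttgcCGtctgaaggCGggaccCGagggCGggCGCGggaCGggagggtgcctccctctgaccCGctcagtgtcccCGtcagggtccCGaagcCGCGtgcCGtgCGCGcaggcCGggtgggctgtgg
Tcf3: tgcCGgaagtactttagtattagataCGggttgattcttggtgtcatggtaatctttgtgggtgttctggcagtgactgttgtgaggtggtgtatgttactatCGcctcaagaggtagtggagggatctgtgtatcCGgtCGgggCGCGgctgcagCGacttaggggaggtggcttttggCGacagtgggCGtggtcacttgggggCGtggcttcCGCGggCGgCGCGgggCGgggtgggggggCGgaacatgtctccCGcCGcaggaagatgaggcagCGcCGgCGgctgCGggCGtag
Satb1: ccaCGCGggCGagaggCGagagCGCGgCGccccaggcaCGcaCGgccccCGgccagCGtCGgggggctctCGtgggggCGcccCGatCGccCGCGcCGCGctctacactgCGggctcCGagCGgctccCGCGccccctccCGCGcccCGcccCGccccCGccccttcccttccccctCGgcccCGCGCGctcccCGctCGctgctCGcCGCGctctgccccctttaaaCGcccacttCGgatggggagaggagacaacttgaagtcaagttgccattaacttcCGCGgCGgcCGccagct
Ebf1: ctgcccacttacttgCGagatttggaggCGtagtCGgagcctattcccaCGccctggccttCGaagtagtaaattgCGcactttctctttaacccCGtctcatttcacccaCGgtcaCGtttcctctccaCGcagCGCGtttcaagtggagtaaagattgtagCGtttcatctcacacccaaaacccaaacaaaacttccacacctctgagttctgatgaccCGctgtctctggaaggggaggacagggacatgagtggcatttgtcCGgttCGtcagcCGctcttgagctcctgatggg
Tcf7: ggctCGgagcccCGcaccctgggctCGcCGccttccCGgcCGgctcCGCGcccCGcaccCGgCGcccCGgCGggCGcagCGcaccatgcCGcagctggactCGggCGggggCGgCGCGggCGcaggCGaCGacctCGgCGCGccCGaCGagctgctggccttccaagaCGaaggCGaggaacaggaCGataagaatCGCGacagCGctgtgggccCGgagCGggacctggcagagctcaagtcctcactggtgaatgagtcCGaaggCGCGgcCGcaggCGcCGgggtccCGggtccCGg
Bcl11b: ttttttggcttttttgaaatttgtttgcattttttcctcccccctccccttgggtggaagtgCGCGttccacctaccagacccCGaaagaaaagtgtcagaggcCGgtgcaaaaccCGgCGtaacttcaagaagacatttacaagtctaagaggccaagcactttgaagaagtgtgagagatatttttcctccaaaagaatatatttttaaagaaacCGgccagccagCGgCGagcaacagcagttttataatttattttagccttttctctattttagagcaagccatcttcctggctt

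These windows hold 52 CG dinucleotides at Ikzf1, 25 at Tcf3, 45 at Satb1, 17 at Ebf1, 45 at Tcf7 and 9 at Bcl11b. Over all 21263 promoter windows of the table the median was 13. It was 24 (interquartile range 18 to 32) in the 7797 windows with H3K4me3 in both lists and 5 (2 to 12) in the 12219 with it in neither. The Tcf7 window is thus CG-rich with no H3K4me3 peak, and the Bcl11b window is CG-poor. Pax5, whose start window also lacked H3K4me3, had 23. Satb1 has 5 starts in the table, and the windows of 3 of them, with 7, 8 and 13 CG dinucleotides and so no more than the median of all windows, overlapped H3K4me3 in both lists. The table holds 15 windows for 8 of the 10 genes, and has no entry for Ikzf2 and Ikzf3. At Ikzf1, Bcl11a, Bcl11b, Tcf7 and Tcf3 the 5′ end of the span is a further start without a window. The sequence at those ends was not read.

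**Figure D1:**
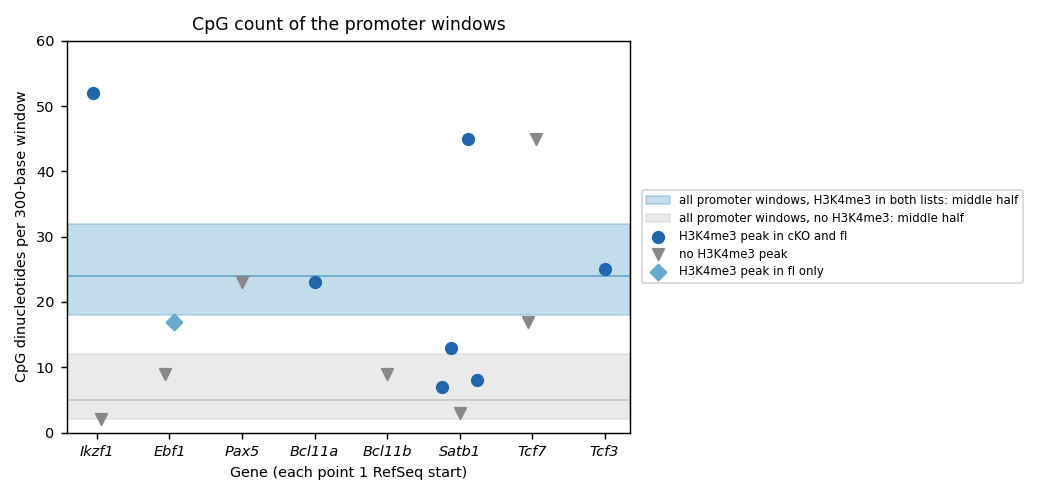
CG dinucleotides per 300-base promoter window (vertical axis) for each start of 8 genes that has a window in the promoter table (horizontal axis). The marker shows H3K4me3 overlap in cKO and fl, in fl only or in neither. Bands give the interquartile range and lines the median of all promoter windows with H3K4me3 in both lists (median 24) and in neither (median 5), and the Tcf7 window with 45 lies far above the lower band without H3K4me3.

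Short sequence motifs were counted on both strands of the same windows. The Ikaros core GGGAA, held by 63.0% of all promoter windows, was found 2 times at Satb1 and 1 time each at Ebf1 and Tcf7, and 0 times at Ikzf1, Tcf3 and Bcl11b. The E-box CANNTG (69.0% of windows) was found 2 times at Ebf1 and 1 time each at Tcf3 and Tcf7. The Tcf7 match is also the E2A form CAGCTG (15.6% of windows). GC boxes (GGGCGG, 46.2% of windows) numbered 3 at Tcf3, 3 at Satb1, 2 at Ikzf1 and 2 at Tcf7, and 0 at Ebf1 and Bcl11b. The TATA box letters TATAAA (12.6% of windows) were found in the Bcl11b window alone of these 6. That match is on the strand opposite to the gene and close to the annotated start, so it was not read as a TATA box of Bcl11b. In none of the 15 windows was the EBF palindrome (0.959%) or the TCF/LEF motif CTTTGAT (3.22%) found. RUNX (TGTGGT, 15.0%) and the PU.1 form of the ETS motif (GAGGAAGT, 3.13%) were absent from the 6 windows shown. Each occurred 1 time in another window, RUNX at the upstream Ebf1 start and the PU.1 form at the outermost Satb1 start.

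The 9 lists placed 84 peaks in the 10 windows, 29 of them at a start of the gene, 14 elsewhere inside it, 33 at the start of a neighbouring gene and 8 in the flanks away from any start. A start peak lay within 1 kb of an annotated start. For genes without a listed start, such as Ikzf2 and Ikzf3, either end of the span counted as a start. Exons and introns were not told apart. The H3K27ac lists gave 22 peaks in cKO and 6 in fl, out of 16331 and 10494 peaks in the whole lists. H3K4me3 gave 19 in cKO and 20 in fl (of 10159 and 10514), H3K9ac 7 in cKO and 3 in fl (of 3431 and 2172), and DEK 2, 2 and 3 in replicates 1 to 3 (of 2054, 2111 and 6147). Per megabase of window the H3K27ac density was 9.78 peaks in cKO and 2.67 in fl. Over the windows of all protein-coding genes it was 7.95 in cKO and 4.50 in fl. Read depth is unknown for every list, and its part in the length of a list was not tested. With 1 library per genotype and mark no difference between cKO and fl below has a replicate check or a test. Fold enrichment (peak over the caller's background) and −log10 q are the authors' values within a list, and heights of different lists were not compared.

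**Figure D2:**
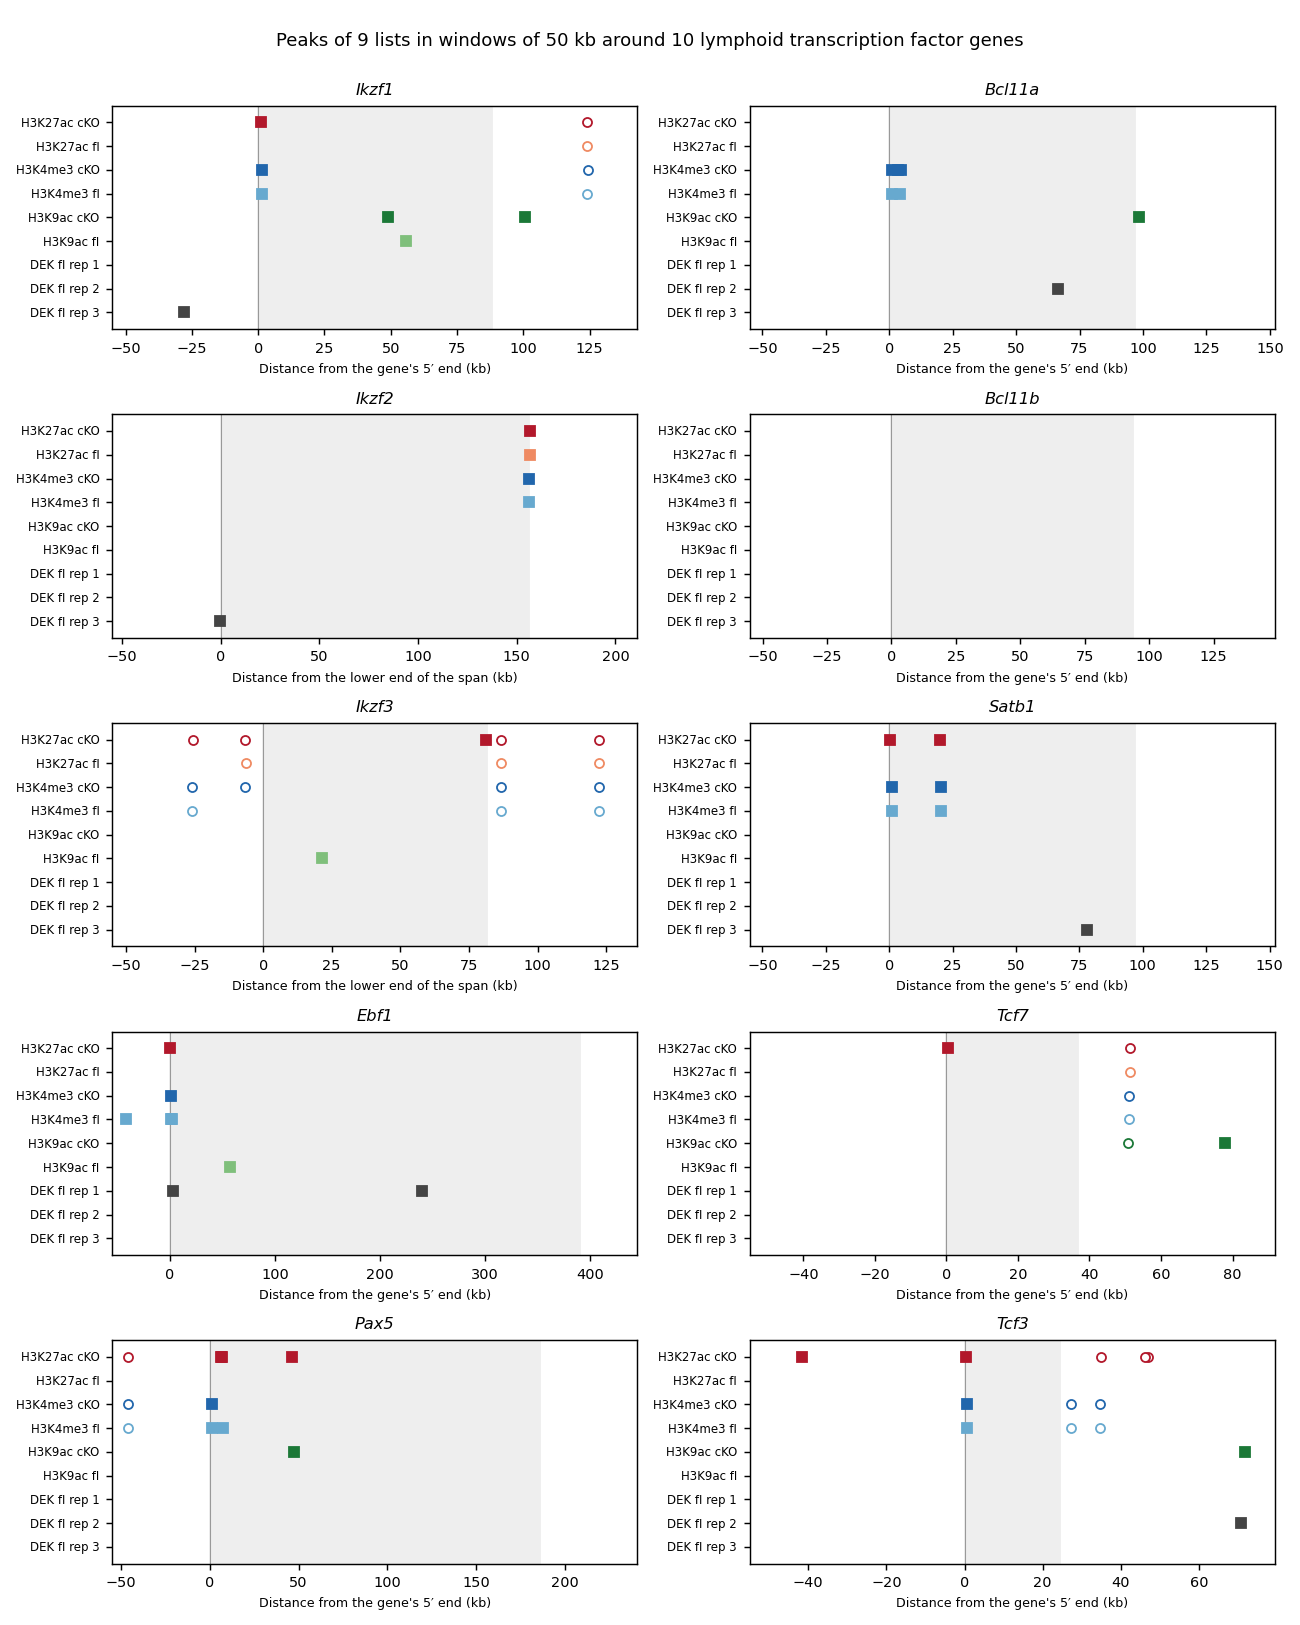
Peaks of each list (rows) by distance in kb from the gene's 5′ end, or from the lower end of the span for Ikzf2 and Ikzf3, whose strand is not in the table. Grey marks the gene span, filled squares are peaks at the gene, inside it or in its flanks, and open circles are peaks at the start of a neighbouring gene, with Bcl11b empty in all 9 rows.

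H3K27ac at the starts was found in cKO only at 6 of the 10 genes (Ikzf1, Ikzf3, Ebf1, Satb1, Tcf7 and Tcf3), against a background of 22.0% of all protein-coding genes. It was in both lists at Ikzf2 (background 22.8%), in fl only at 0 genes (background 0.370%) and in neither at Pax5, Bcl11a and Bcl11b (background 54.9%). Counted per gene over all its starts, H3K4me3 gave the same call in both genotypes at each of the 10 genes. Near the downstream start of Ebf1 both lists had a peak, at 775 bp in cKO and 575 bp in fl. A further peak over that start was in fl only. H3K4me3 was present in both at Ikzf1, Ikzf2, Ebf1, Bcl11a, Satb1 and Tcf3 (background 43.6%) and absent from both at Ikzf3, Pax5, Bcl11b and Tcf7 (background 52.0%). By this count 0 of the 10 genes had H3K4me3 in 1 genotype only, where 1.62% of all genes were cKO only and 2.76% fl only. Over the whole windows, H3K27ac was cKO only at 4 genes (Ebf1, Pax5, Satb1 and Tcf3, background 19.1%), in both at 4 (Ikzf1, Ikzf2, Ikzf3 and Tcf7, background 57.2%), and fl only at 0 (background 1.29%). H3K4me3 was in both at 9 windows (all but Bcl11b, background 65.5%), and in 1 genotype at 0 (background 1.58% cKO only and 2.17% fl only). In the Ikzf1, Ikzf3 and Tcf7 windows every fl H3K27ac peak lay at the start of a neighbouring gene. The same holds for every H3K4me3 peak in the Ikzf3 and Tcf7 windows. Among the 6 genes with H3K4me3 in both, 4 had H3K27ac in cKO only, where the share was 33.0% of all genes with such H3K4me3. Ikzf2 had it in both (49.2% of those genes), Bcl11a in neither (17.2%), and 0 genes in fl only (0.534%). The 4 genes without H3K4me3 included 2 with H3K27ac in cKO only (Ikzf3 and Tcf7), where the share was 11.0%, and 2 with it in neither (Pax5 and Bcl11b, 87.5%). None of these 4 had it in both (1.35%) or in fl only (0.211%). In sorted bulk cells, fewer marked cells and less signal per cell cannot be told apart. The members were named with results of these data known, so these shares describe the genes and test nothing.

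The longer cKO list was then shortened to the length of the fl list by p-value. H3K27ac in cKO only remained at Ikzf1, Ikzf3, Satb1 and Tcf3 (4 genes, background 11.6%), while the Ebf1 and Tcf7 peaks fell outside the shortened list. At a −log10 q of at least 5 all 6 genes were still cKO only (background 23.0%). This outcome was fixed in advance and is no check. The strongest cKO start peaks of these genes had a −log10 q from 8.79 (Tcf7) to 22.5 (Satb1), and fl had no start peak to lose.

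**Figure D3:**
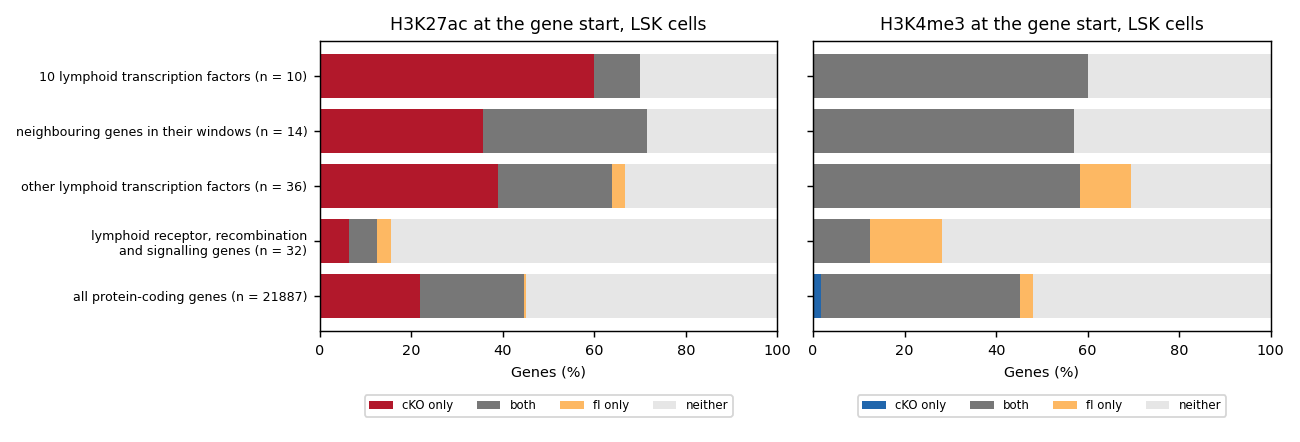
Share of genes (%, horizontal axis) with a peak at the start in cKO only, both, fl only or neither list, for H3K27ac (left) and H3K4me3 (right) in LSK cells, 1 library per genotype. The 10 lymphoid transcription factors have 6 genes in the H3K27ac cKO-only class and 0 genes in the H3K4me3 cKO-only and fl-only classes.

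Ikzf1, the Ikaros gene, had 1 H3K27ac peak at its start in cKO (chr11:11685767-11686508, 742 bp wide), fold 10.4, −log10 q 21.8 and rank 6616 of 16331, and none in fl. It overlapped H3K4me3 peaks of 925 bp in cKO (fold 8.68, rank 1151 of 10159) and 900 bp in fl (fold 7.96, rank 1975 of 10514). Its other promoter window in the table (chr11:11689927-11690226) overlapped no peak of either LSK mark. Within 50 kb of the gene the start of Fignl1, a DNA repair gene, held both marks in both genotypes, with H3K27ac folds of 14.5 in cKO and 8.08 in fl.

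Tcf3, the E2A gene, had the strongest H3K4me3 of the set by rank, 760 of 10159 in cKO (1025 bp, −log10 q 51.6) and 516 of 10514 in fl (922 bp, −log10 q 71.2). Its H3K27ac peak was in cKO only (chr10:80433177-80433843, 667 bp, fold 10.3, −log10 q 18.3) and its summit lay 217 bp from that of the cKO H3K4me3 peak. A second cKO-only H3K27ac peak of 546 bp stood 41232 bp from the nearest Tcf3 start, on the far side of the gene's 5′ end, at chr10:80475208-80475753 (fold 12.1, −log10 q 22.3). It had no H3K4me3 and was the only flanking H3K27ac peak away from any gene start in the 10 windows. Neighbouring starts differed among themselves. Mbd3, which encodes a NuRD complex subunit, had H3K4me3 in both genotypes and H3K27ac in cKO only (1131 bp, fold 8.81), and Mex3d, an RNA-binding protein gene, had H3K27ac in cKO only (fold 8.92) without H3K4me3. Uqcr11, a respiratory chain gene, had H3K4me3 in both and no H3K27ac.

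Satb1 was marked at 2 places about 20 kb apart, each at annotated starts. At the outer place H3K4me3 covered 1801 bp in cKO and 1941 bp in fl, among the widest 2.01% and 1.57% of peaks in their lists. At the inner place it covered 1447 bp in cKO and 1527 bp in fl (widest 6.46% and 6.02%). H3K27ac was in cKO only at both. The outer peak was 505 bp wide (chr17:51832860-51833364, fold 11.9, −log10 q 22.5), and the inner one 1061 bp wide (chr17:51812655-51813715, fold 7.30, −log10 q 11.9), among the widest 4.34% of its list. A start between them, in the window at chr17:51826539-51826838, had no peak.

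Ikzf2, the Helios gene, was the exception, with H3K27ac in both genotypes. The peak was 397 bp wide in cKO (fold 10.6, −log10 q 15.2, rank 9581 of 16331) and 301 bp in fl (fold 5.93, −log10 q 6.01, rank 9426 of 10494). The fl peak thus stood low in its list. H3K4me3 lay at the same end of the gene, 1112 bp wide in cKO and 1143 bp in fl. Of the 8 H3K27ac regions at starts of the 10 genes, this was the 1 region that the fl list held at all.

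For Ikzf3, the Aiolos gene, 1 of the 2 annotated ends carried H3K27ac, in the cKO list alone (chr11:98545515-98546011, 497 bp, fold 12.7, −log10 q 21.5). No H3K4me3 peak lay within 5014 bp of it in either genotype. Its window is gene-dense, and the neighbouring Zpbp2, a sperm protein gene, held H3K27ac in both genotypes, 504 bp in cKO (fold 17.3) and 301 bp in fl (fold 6.15). Ormdl3, a regulator of sphingolipid synthesis, also had it in both (folds 14.3 in cKO and 9.02 in fl). Mien1 had a peak in both genotypes at 1 annotated end (folds 15.9 in cKO and 7.25 in fl) and in cKO only at the other (fold 10.6).

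Tcf7, the TCF-1 gene, likewise had H3K27ac without H3K4me3. Its cKO-only peak was narrow and low in its list (chr11:52282775-52283101, 327 bp, fold 7.11, −log10 q 8.79, rank 13634 of 16331). The nearest H3K4me3 peak was that of Skp1, a ubiquitin ligase subunit gene, 49979 bp away in cKO and 49932 bp away in fl. Skp1 carried all LSK marks in both genotypes, with H3K27ac folds of 15.0 in cKO and 8.96 in fl.

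Ebf1 and Pax5, which act in sequence in B cell commitment, had marks at several places each. Ebf1 had H3K27ac in cKO only at its upstream start (chr11:44618154-44618607, 454 bp, fold 8.58, −log10 q 10.9), 528 bp from the cKO H3K4me3 peak. That H3K4me3 peak was 319 bp wide in cKO and lay 775 bp from the downstream start. In fl there were 2 peaks, 417 and 473 bp wide. The narrower overlapped the cKO peak, and the wider, over the downstream start, was in fl only (fold 6.62, −log10 q 15.0). Pax5 had no peak within 1 kb of its annotated start. An H3K4me3 peak lay just beyond that limit, 1120 bp inside the gene in cKO (375 bp, fold 6.92) and 1158 bp in fl (374 bp, fold 6.80). Farther in, 6831 bp from the start, fl had an H3K4me3 peak of 765 bp (fold 6.66, −log10 q 13.8) that cKO lacked. Over and beside it cKO had 2 H3K27ac peaks, 317 and 532 bp wide (folds 5.65 and 8.25), that fl lacked. A further cKO-only H3K27ac peak, 46012 bp inside, was the weakest of the set (312 bp, fold 4.81, −log10 q 3.78, rank 16297 of 16331). The neighbour Zcchc7, an RNA-processing gene, had H3K4me3 in both and H3K27ac in cKO only (fold 14.3).

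**Figure D4:**
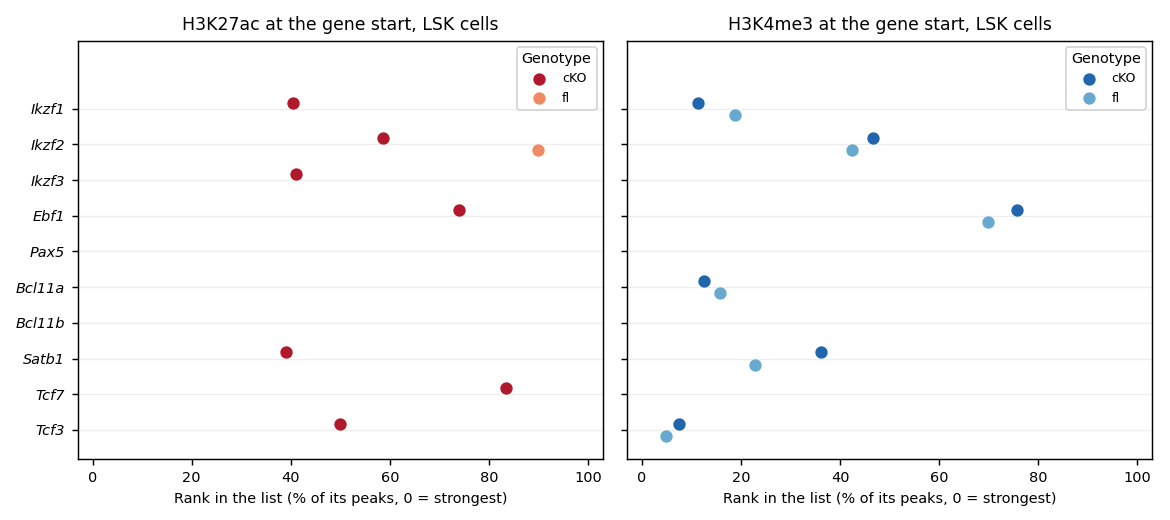
Rank of the strongest peak at each gene start as a percentage of its list (horizontal axis, 0 is the strongest peak) for cKO and fl LSK cells, 1 library each, with H3K27ac on the left and H3K4me3 on the right. A gene without a point had no peak, and Ikzf2 is the 1 gene with an fl H3K27ac point. The lists differ in length, so ranks place a peak within its own list only.

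Bcl11a and Bcl11b, a pair of related zinc finger genes, stood apart from the rest. Bcl11a had strong H3K4me3 and no H3K27ac peak anywhere in its window in either genotype. Its outer start carried an 881 bp H3K4me3 peak in cKO (fold 4.92, rank 1282 of 10159) and an equally wide one in fl (fold 4.68, rank 1650 of 10514). At its inner start cKO had 2 peaks of 377 and 778 bp where fl had a single one of 1331 bp, and both cKO peaks overlapped the fl one. Bcl11b, which is switched on when T cells commit, had 0 peaks of any list in its 193.7 kb window. Windows with no peak of the 9 lists made up 11.4% of all protein-coding genes, and 5.27% of the 8442 genes whose spans lie within the members' range of 24.4 to 390.0 kb.

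The summed width of H3K4me3 at the starts was smaller in cKO at 4 of the 6 marked genes. The sums were 319 bp in cKO and 890 bp in fl at Ebf1, 3248 and 3468 bp at Satb1, 2036 and 2212 bp at Bcl11a, and 1112 and 1143 bp at Ikzf2. They were larger in cKO at Tcf3 (1025 bp in cKO and 922 bp in fl) and Ikzf1 (925 and 900 bp). Of all 9410 shared H3K4me3 regions 62.5% were narrower in cKO, and the median difference (cKO minus fl) was -37 bp, so 4 of 6 is near the background. Ebf1 had by far the widest gap, because its downstream region was missing from the cKO list.

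**Figure D5:**
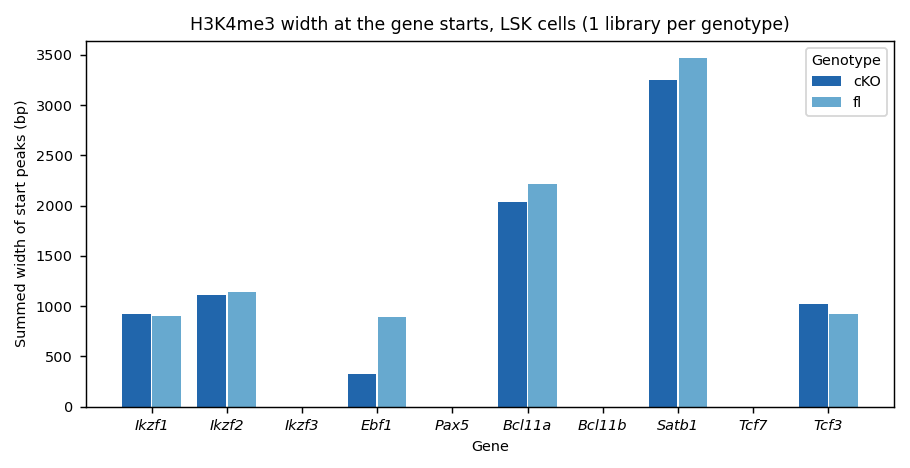
Summed width in bp of H3K4me3 peaks within 1 kb of a start (bars from 0) for each gene, cKO beside fl, 1 library per genotype and no error bars. Satb1 is the widest, with 3248 bp in cKO and 3468 bp in fl, and Ebf1 has 319 bp in cKO and 890 bp in fl.

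Counted as regions (overlapping peaks of cKO and fl joined), the 10 windows held 22 H3K27ac regions, of which 16 were cKO only (72.7%, 95% exact binomial interval 49.8 to 89.3, for counting error only). The background was 40.9% of 17662 regions in the genome. The 16 became 9 with lists of equal length, beside 6 in both and 0 in fl only. Counting only peaks nearest to the member, they became 10, beside 1 in both and 0 in fl only. The total thus fell too, and the background was not recomputed for either. Of the 22 regions in the main setting, 6 were in both (27.3%, 10.7 to 50.2, background 51.5%) and 0 in fl only (interval up to 15.4%, background 7.62%). The intervals take regions as independent, though several share a window, as at Ikzf3, Tcf3 and Pax5, and all come from 1 library per genotype. The cKO-only regions were spread over all kinds of place, with 7 at starts of the 10 genes, 3 inside Pax5, 5 at neighbouring starts and 1 in the Tcf3 flank. Neighbouring starts held 5 of the 6 regions in both lists. Over genes, 5 of the 14 neighbours had H3K27ac in cKO only at a start (Mbd3, Mex3d, Zcchc7, and Erbb2 and Plk5, whose starts lie outside the windows) and 5 in both, 35.7% each against 22.0% and 22.8% of all genes. Of the 21 H3K4me3 regions, 17 were in both lists (81.0%, 58.1 to 94.6, background 84.2%), 1 was cKO only (at an annotated end of Mien1, background 6.15%) and 3 were fl only (background 9.65%). The fl-only ones were those over the Ebf1 downstream start, inside Pax5 and, with a −log10 q of 2.62, in the Ebf1 flank.

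H3K9ac in HSC gave no peak at any start of the 10 genes, where 98.6% of all genes also had none, 0.868% had it in cKO only, 0.525% in fl only and 0.0366% in both. In the windows cKO had 7 peaks and fl 3, and no cKO peak overlapped an fl one. As regions these were 7 in cKO only (background 58.9% of 5277), 3 in fl only (35.0%) and 0 in both (6.12%). The windows of Pax5, Bcl11a, Tcf7 and Tcf3 held H3K9ac in cKO only (4 genes, background 16.6%), those of Ikzf3 and Ebf1 in fl only (2 genes, background 9.17%) and that of Ikzf1 in both (background 5.29%), at places 6618 bp apart at the nearest. Among genes with spans in the members' range the shares were 19.3% cKO only, 11.6% fl only and 7.65% both. The −log10 q of these peaks ran from 1.70 to 4.71 in cKO and from 1.64 to 2.82 in fl, so at a limit of 5 no peak was left. The cKO peaks of Ikzf1 and Pax5 had the lowest −log10 p of their list, 5.08, and the calls for these genes rest on them. The cKO peak at the Skp1 start, in the Tcf7 window, was the 1 H3K9ac peak of the set that overlapped H3K4me3. One cKO peak inside Pax5 lay 892 bp from the weak cKO H3K27ac peak there.

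DEK peaks in fl HSC lay in the windows of 6 of the 10 genes when the 3 libraries were pooled (background 38.5% of all genes, and 48.4% of genes with spans in the members' range). No gene had them in 2 libraries (background 8.86%), and no DEK peak overlapped one of another library. Replicate 1 had peaks at 1 gene (background 11.0%), replicate 2 at 2 (11.7%) and replicate 3 at 3 (26.2%), with a mean of 2.33 ± 0.577 peaks (SD, n = 3). The density was 0.889, 0.889 and 1.33 peaks per megabase in replicates 1 to 3, against 0.804, 0.855 and 2.38 over all gene windows. Both peaks of replicate 1 were at Ebf1, at 833 bp from its downstream start (352 bp, fold 4.32, −log10 q 2.63) and 237239 bp inside (293 bp, fold 5.54, −log10 q 4.06). Replicate 2 had a peak inside Bcl11a (567 bp, fold 3.61) and a peak in the Tcf3 flank (323 bp, fold 6.41), which with a −log10 q of 5.29 was the 1 DEK peak above 5 and lay 709 bp from a cKO H3K9ac peak. Replicate 3 had a peak in the Ikzf1 flank (fold 5.06), a peak inside Satb1 (fold 4.47) and a peak at the end of Ikzf2 away from its H3K4me3 (fold 3.58). None of the 7 overlapped an H3K27ac, H3K4me3 or H3K9ac peak, and the nearest to any H3K4me3 of fl was the Ebf1 peak, at 511 bp. Peak names in the deposited list of replicate 3 begin with Flag, whereas the other two lists begin with a number and DeK. Its label gives DEK, and it was used as labelled.

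Other lymphoid genes were read the same way. Of 36 further lymphoid transcription factors, 14 had H3K27ac at the start in cKO only, 9 in both, 1 in fl only and 12 in neither (38.9% cKO only and 33.3% neither). Of all genes 22.0% were cKO only, 22.8% both, 0.370% fl only and 54.9% neither. In the list, those with the strongest cKO-only peaks were Bach2, a B cell repressor (fold 10.6, −log10 q 25.6), the Ikaros relative Ikzf5 (fold 12.6), the E protein gene Tcf4 (fold 10.2), Foxo1 (fold 6.79), Zbtb17 (fold 9.95), Myb (fold 6.90), Tox2 (fold 7.54) and Erg (fold 8.08). Irf4, a plasma cell regulator, was in fl only (fold 6.45, −log10 q 6.64). H3K4me3 was in both lists at 21 of the 36 (58.3%, against 43.6% of all genes), in fl only at Id3, Spi1, Irf8 and Erg (4 genes, 11.1% against 2.76%), and in cKO only at 0 (against 1.62%). The fl peaks of these 4 genes ranked low, from 83.6% (Erg) to 93.4% (Spi1) of the way down their list. Among 32 lymphoid receptor, recombination and signalling genes, 27 had no H3K27ac at the start (84.4%, against 54.9% of all genes). In cKO only were Hes1, a Notch target (fold 8.20), and Cd4 (fold 10.3), in both Flt3 and Syk, and in fl only Lck (fold 5.51, −log10 q 4.91). H3K4me3 at this list was in both at Flt3, Cd79b, Hes1 and Syk. It was in fl only at 5 genes (15.6%, against 2.76% of all genes), which were Dntt, Il7r, Igll1, Blnk and Il2rg, and in cKO only at 0 (against 1.62%). The fl peaks of these 5 genes ranked from 66.6% (Igll1, −log10 q 16.4) to 98.9% (Il7r, −log10 q 2.72) of the way down their list. The fl-only H3K4me3 calls of both lists of other lymphoid genes were not recomputed at equal list length or at a stricter q.

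The full arrangement of the 6 histone lists over start, inside and flanks (18 positions) was compared between genes. No other protein-coding gene had that of Ikzf1, while 1 shared that of Ebf1, 2 that of Pax5, 8 that of Ikzf3 and 33 that of Bcl11a. The numbers were 517 for Ikzf2, 399 for Satb1 and 72 for Tcf3. The Ikzf1 arrangement includes H3K9ac peaks of low −log10 q (1.70 in cKO and 1.64 in fl) and the peaks at the Fignl1 start. Tcf7 had the same arrangement as 52 genes, with Ikzf4 among them. The empty arrangement of Bcl11b was shared by 3304 genes, with Cd8a among them.

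The gates were checked against marker genes. Of 12 stem and progenitor genes, H3K4me3 at the start was in both LSK lists at Kit, Cd34, Mecom, Gata2, Meis1 and Tal1 (6 genes, 50.0%, near the 43.6% of all genes), in cKO only at Hlf and Lmo2, and in fl only at Procr. It was in neither at Ly6a and Slamf1, which encode the gate markers Sca-1 and CD150, and at Hoxa9. The mature B genes Ms4a1, Cd22 and Cd79a had it in neither list, as did 52.0% of all genes. The mature T genes Cd3e, Cd4, Cd8a and Lck had it in 0 of 4, and Cd4 and Lck, as given above, had an H3K27ac peak in 1 genotype each. Of 5 mature myeloid genes S100a8 had H3K4me3 in cKO only (1.62% of all genes) and Mpo in fl only (2.76%), and of 5 erythroid genes Klf1 and Epor had it in both and Hbb-bt in cKO only. The part of the cell make-up in these differences was not tested. Dek itself had H3K4me3 at its start in both genotypes and H3K27ac in cKO only, which does not show whether the floxed part was deleted.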

How the data were processed

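The submitters' processing notes name mm10, MACS2, Picard and Bowtie2. Their versions, the control track and the calling threshold were not given in the sources used here. Each library has its own narrowPeak list, as the authors deposited it. In the regular rows, the authors' score equals their −log10 p-value multiplied by 10 with decimals dropped. The deposited fold is a ratio over the caller's background, and −log10 q is the authors' value too. Depth is unknown, since the lists hold no read counts.

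Only autosomal, X and Y peaks entered. Left out were 16 mitochondrial DEK peaks and 11 irregular DEK rows (strand mark altered, score off its rule, q out of step with p, or coordinates out of order), none of them in the windows. Coordinates are mm10, counted from 1. Genes came from RefSeq (GRCm38.p6). A start was a RefSeq promoter table start or the 5′ end of the span (17492 genes), or either end for the 4395 genes without an entry. A start peak lay within 1 kb. Peaks of cKO and fl overlapping by at least 1 bp were joined. No test between genotypes was run, since each had 1 library per mark. Intervals are 95% exact binomial (Clopper-Pearson). Overlap calls were tested on simulated data. Of each other lymphoid list, up to 8 genes called in 1 genotype for H3K27ac were named, by −log10 q, and classes of 5 or fewer genes were named after their values were seen. Of the mature B markers, 1 gene is not reported here. Members and lists were chosen with earlier results of these data known. Tables were handled with pandas 2.3.3 and numpy 2.4.6 under Python 3.11.15, intervals computed with scipy 1.17.1 and figures drawn with matplotlib 3.10.9.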

Additional observations from a re-analysis of the deposited data

How the results depend on the processing

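Of 102 values recomputed under the alternatives, 83 stayed within 1.5 times the reported one and 19 moved. The counts of genes with H3K27ac or H3K4me3 at the start were all among the 83. Many of the 83 are counts of 0 that stayed 0, so the tally does not measure stability. The count of genes with start H3K27ac in cKO only, 6 in the main setting and 4 with lists of equal length, is among the 83 but lies at the 1.5 limit. At a −log10 q of at least 5, genes with H3K9ac in the window fell to 0 (cKO only), 0 (both) and 0 (fl only), H3K9ac regions to 0 (cKO only) and 0 (fl only), and genes with a DEK peak in any library to 1. With lists of equal length, 9 H3K27ac regions and 4 H3K9ac regions were cKO only, and 0 genes had H3K9ac in both. With a window of 10 kb, 3 H3K27ac regions were in both, 3 H3K9ac regions were cKO only, and 2 genes had H3K9ac in cKO only. Counting only peaks nearest to the member, H3K27ac regions were 10 (cKO only) and 1 (both), H3K4me3 regions 0 (cKO only) and 9 (both), and H3K9ac regions 4 (cKO only), while 2 genes had H3K9ac in cKO only. These settings drop peaks by construction. Leaving out each DEK replicate gave 3 to 5 genes in any library (3 without replicate 3) and 0 in 2 libraries. Requiring an overlap of 50% of the shorter peak, a start window of 2.5 kb, both annotated ends, or keeping the irregular rows gave none of the 19. The overlap rule enters only the joining of regions and could not change a count of genes. Keeping the irregular rows could change nothing, since none lay in the windows. No paired analysis was possible because each mark had 1 library per genotype and the DEK replicates formed a single group. Unknown depth limits every absence of a peak.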

Other observations

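Beside the lymphoid factors, 7 of 12 stem and progenitor genes (Kit, Cd34, Mecom, Hlf, Gata2, Meis1 and Tal1) carried start H3K27ac in the cKO list alone and the other 5 in neither list, where 22.0% of all protein-coding genes were cKO only. The 5 mature myeloid genes had it in neither list (54.9% of all genes), and of 5 erythroid genes Klf1 had it in both (22.8% of all genes). Of 4 genes of other tissues, Cdx2, a gut transcription factor, had it in cKO only.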
